A study of Xenopus laevis with 32 samples.

Results

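The vacuolar proton pump, or V-ATPase, was followed in amputated tails of the frog Xenopus laevis through the genes that encode its subunits. Genes were taken as members when their identifier in the deposited raw count tables starts with atp6v or atp6ap. This gave 43 genes, of which 42 were listed for both periods of the study: 22 of the V1 sector, 13 of the V0 sector and 7 of accessory subunits, out of 27467 genes listed for both. Of these, 40 passed the filter on low counts and were tested among 21231 genes. The filter left out atp6ap1l.L, with 32 counts in regeneration and 29 in refractory libraries, and atp6v1g2.S, with 6 and 7. The 43rd gene, atp6v1c2.S, was listed for the refractory period with 16 counts in 4 libraries and was not tested. The a3 subunit gene tcirg1 does not carry the family name and was not a member. The endings .L and .S mark the 2 homeologs, the copies of a gene on the long and short subgenomes of this allotetraploid frog.

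Tails came from 2 labelled periods: the regeneration period, and the refractory period, when tadpoles of this frog temporarily lose the capacity to regrow a cut tail. All tails were amputated and collected at 0, 0.5, 6 or 72 h, with no other treatment, allele or transgene named in the labels, and the age of the embryos is not given beyond the period. There were 8 groups with 4 libraries apiece, lettered A to D, each from RNA of 20 pooled embryos. The labels call the 4 libraries biological repeats and do not say whether they came from separate clutches, so p-values measure the spread between these samples. The design has no uncut tails collected at 0.5, 6 or 72 h, and changes from 0 h therefore also contain ordinary development. The extraction protocol names the regenerative stage also for samples labelled refractory, and the word refractory follows the label throughout. The periods were collected at different stages by definition, and stage and ability to regrow cannot be told apart.

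The V-ATPase is a rotary motor that uses ATP to move protons across membranes. Its cytosolic V1 sector holds the catalytic A and the B subunits in a ring, joined to the membrane by a central shaft (D and F) and by peripheral stalks (C, E, G and H). Its membrane V0 sector holds the ring of proteolipid c subunits that carries protons, the a subunit that forms the path for them, and subunits d and e. The pump acidifies lysosomes, endosomes and synaptic vesicles in most cells, and in ionocytes of the frog skin it sits in the outer membrane and secretes acid. V-ATPase activity at the wound is known to be needed for tail regrowth in this frog. Messenger RNA levels do not measure pump protein, assembly or activity.

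Total counts over the genes listed for both periods ran from 1868302 to 4021785 per library, and the V-ATPase genes took 6044 to 15014 of them. Levels are given as CPM (counts scaled to TMM-adjusted library size), and changes as log2 values with a standard error (SE). Transcript lengths were not available, so levels are compared between samples and not between genes. Markers of the labelled tissue were present in all libraries, with summed skeletal muscle markers at 21420 to 82760 CPM. The authors' normalized tables hold 27 of the 32 libraries. Of the 5 they lack, 4 stood apart within their groups in summed retina and lens markers. Regeneration 0 h A had 1324 CPM against at most 933 CPM in the group's other libraries, regeneration 0.5 h A 1418 against 945 CPM, regeneration 6 h B 1520 against 859 CPM, and refractory 72 h A 1450 against 988 CPM. These 4 were also the highest of their groups in summed liver, pancreas and gut markers, at 3789 against at most 2697 CPM, 3841 against 2694 CPM, 3947 against 2237 CPM and 3775 against 2765 CPM in the same order. The fifth, refractory 0.5 h A, was also the highest of its group in both sums, by smaller gaps. It had 1086 against at most 998 CPM for retina and lens, and 2973 against at most 2763 CPM for liver, pancreas and gut. Each V-ATPase gene called in the test of all 32 libraries is therefore also given for the 27 libraries.

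Summed over the members, V-ATPase expression in the regeneration period was lower at 72 h than at any earlier time. The 42 genes added up to 3727, 4000, 3714 and 3845 CPM at regeneration 0 h, to 3795, 3845, 3789 and 3969 CPM at 0.5 h, to 3757, 3963, 3972 and 4071 CPM at 6 h, and to 3426, 3150, 3039 and 3304 CPM at 72 h. All 4 libraries at 72 h lay below all 12 earlier ones. In the refractory period the summed CPM values were 3724, 3482, 3196 and 3535 at 0 h, then 3700, 3302, 3230 and 3536 at 0.5 h, 3764, 3405, 3402 and 3415 at 6 h, and 3763, 3552, 3341 and 3360 at 72 h. The refractory groups overlapped at all 4 times. By sector, the V0 genes summed to 2170 ± 47.9 CPM (SD, n = 4) at regeneration 0 h and 1762 ± 110.4 CPM at 72 h. The V1 genes summed to 1334 ± 79.98 and 1173 ± 59.1 CPM, and the accessory genes to 317 ± 38.96 and 295 ± 11.96 CPM at the same times. These sums follow the genes with the most counts and were not tested. In bulk tissue, fewer cells of a type and less RNA per cell cannot be told apart.

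**Figure D1:**
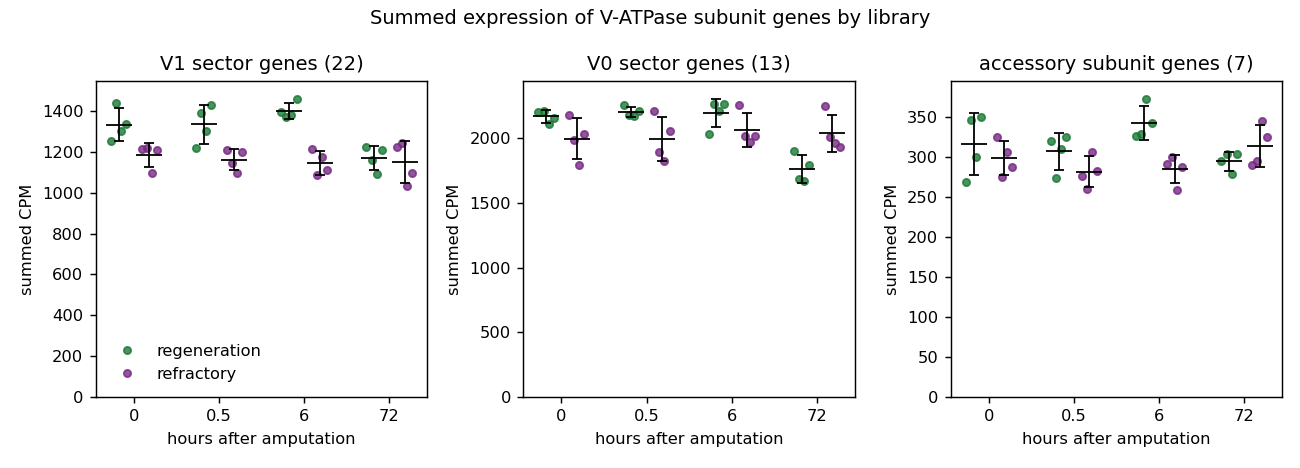
Summed CPM of the V1, V0 and accessory subunit genes (vertical axes) against hours after amputation. Points are the 4 libraries of a group, and bars show the mean and SD. The V0 sum averages 2170 CPM at regeneration 0 h and 1762 CPM at 72 h.

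The first question was whether the pump's genes changed in the hours after amputation, when V-ATPase activity is known to be needed. At 0.5 h in the regeneration period, edgeR's quasi-likelihood test with Benjamini-Hochberg adjustment called 0 of 40 members at an adjusted p under 0.05, beside 0.0612% of all genes tested. At an unadjusted p under 0.05 none was higher and 1 was lower, beside 637 of 21231 genes in either direction. The lower gene was atp6v1f.S, which had only 0 to 22 counts per library. DESeq2 called 0 members. At 6 h the quasi-likelihood test called 0 of 40, beside 0.273% of all genes, and DESeq2 called 0. At an unadjusted p under 0.05, 2 members were higher, beside 1441 of 21231 genes in either direction. The median log2 change of the members was 0.02 at 0.5 h and 0.06 at 6 h, beside -0.0076 and 0.01 over all genes. In the refractory period the test also called 0 of 40 at 0.5 h, beside 0.132% of all genes, and 0 of 40 at 6 h, beside 2.45%. There, 1 member was lower at 0.5 h and 1 was higher at 6 h at an unadjusted p under 0.05. Over all 21231 genes, 924 and 2491 passed that threshold in either direction. DESeq2 called 0 members at both times. The refractory medians were -0.0041 and -0.0073, beside 0.0020 and -0.02 over all genes. The comparisons of later times within a period share its 0 h libraries.

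How large a change these counts leave room for differed between members. The 95% interval of the log2 change lay within -1 and 1 for 23 members at regeneration 0.5 h and 23 at 6 h, and for 21 at 0.5 h and 20 at 6 h in the refractory period. For the proteolipid gene atp6v0c.L, the regeneration intervals were -0.13 to 0.24 (0.5 h) and -0.10 to 0.27 (6 h), and the refractory ones -0.14 to 0.23 (0.5 h) and -0.02 to 0.35 (6 h). For the catalytic subunit gene atp6v1a.L the regeneration intervals were -0.35 to 0.14 (0.5 h) and -0.27 to 0.22 (6 h). The 2 members with an unadjusted p under 0.05 at regeneration 6 h were the stalk gene atp6v1e1.L and the small membrane subunit gene atp6v0e1.L. For atp6v1e1.L the libraries stood at 35.5, 50.6, 48.4 and 44.3 CPM at 0 h and at 65.7, 67.2, 64.4 and 61.1 CPM at 6 h, without overlap (log2 change 0.53 ± 0.22 SE, adjusted p = 0.521). For atp6v0e1.L they stood at 10.4, 7.30, 13.4 and 3.16 CPM and at 23.8, 12.4, 22.01 and 14.1 CPM, with overlap (1.07 ± 0.40 SE, adjusted p = 0.405).

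**Figure D2:**
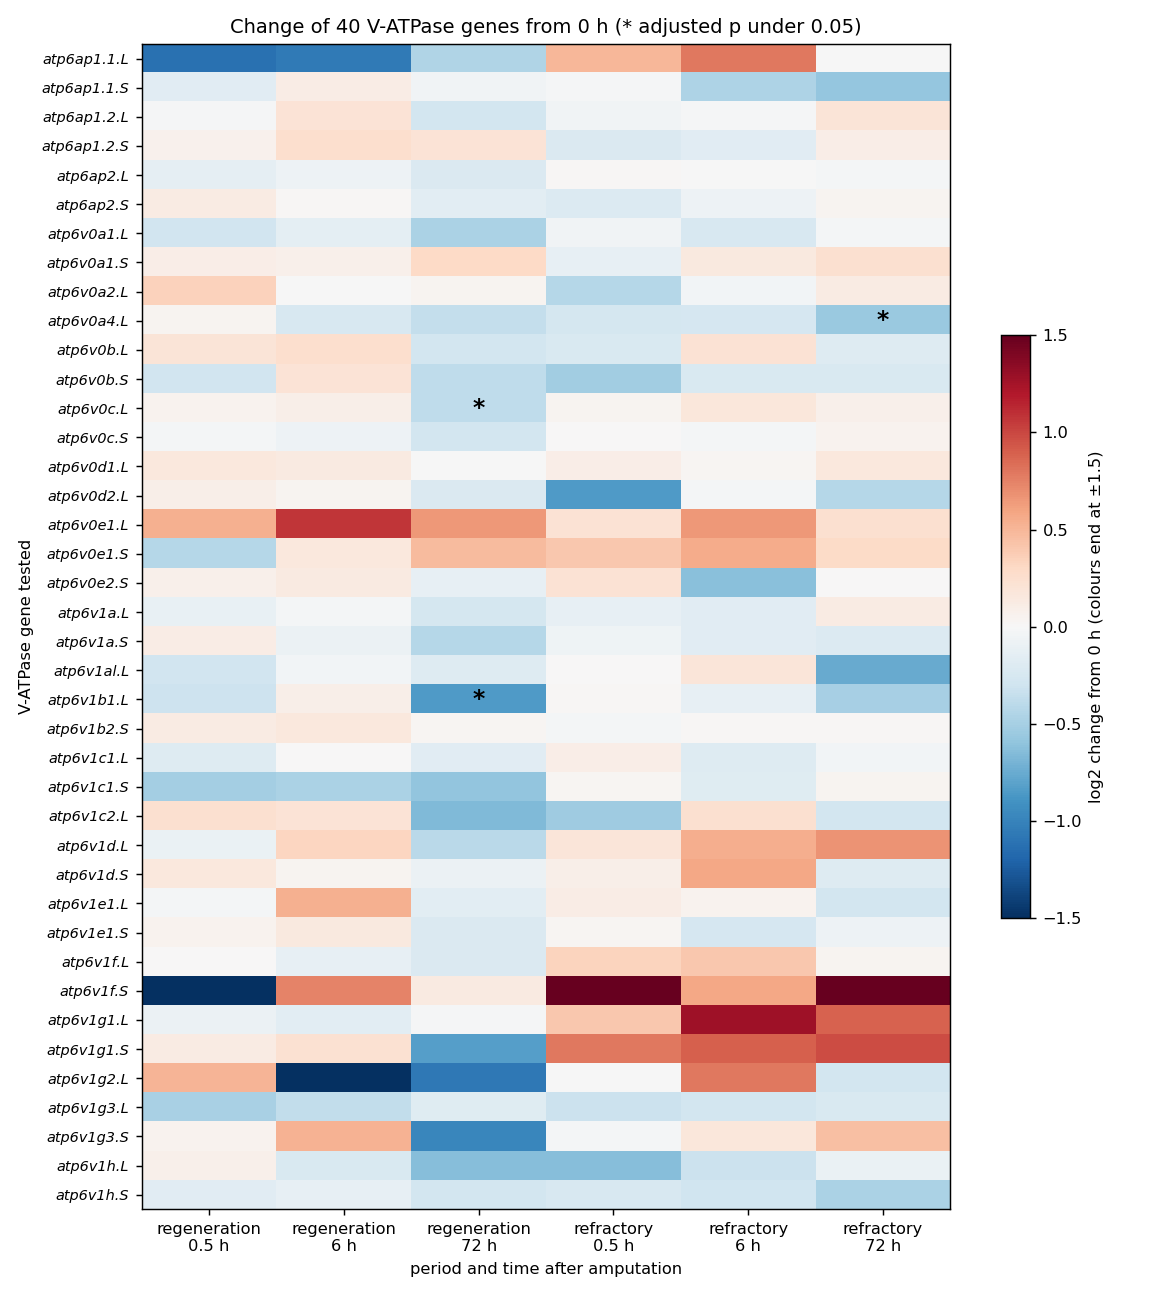
Log2 change from 0 h (colour) of the 40 tested V-ATPase genes (rows) at 0.5, 6 and 72 h in each period (columns). Stars mark the 3 changes with an adjusted p under 0.05, all of them lower and all at 72 h. The strong colours of atp6v1f.S and atp6v1g2.L rest on 0 to 26 counts per library.

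At 72 h in the regeneration period 2 members fell: the proteolipid gene atp6v0c.L and atp6v1b1.L, the gene of the B1 isoform of the V1 ring. They are 2 of 40, beside 3.85% of all genes called, so the share of members called was near that of all genes. At an unadjusted p under 0.05 another 5 were lower and none was higher. That made 7 of 40, beside 3027 of 21231 genes in either direction. DESeq2 called 3 members. The shares of all genes set beside member counts come from the quasi-likelihood test, and those under DESeq2 are not given here. Of the 40 members 33 had a log2 change below 0, which is 82.5%, beside 48.2% of all genes, and the median was -0.22 beside 0.02. By sector 19 of 21 V1, 9 of 13 V0 and 5 of 6 accessory genes were below 0. In the refractory period 1 member fell at 72 h, atp6v0a4.L, the gene of the a4 isoform of the membrane subunit. It is 1 of 40, beside 1.65% of all genes, and DESeq2 also called 1. At an unadjusted p under 0.05, 2 more were lower and none was higher. That made 3 of 40, beside 2199 of 21231 genes in either direction. There 20 members lay above and 20 below 0, with a median of 0.0039 beside 0.02.

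In the V0 ring, atp6v0c encodes the proteolipid whose rotation carries protons. In regeneration tails atp6v0c.L stood at CPM values of 999, 1016, 982 and 1009 at 0 h, 1066, 1023, 969 and 1102 at 0.5 h, 942, 1084, 1068 and 1152 at 6 h, and 838, 765, 732 and 744 at 72 h (libraries A to D). All 4 libraries at 72 h lay below all earlier ones, and the change from 0 h was -0.38 ± 0.092 SE (adjusted p = 0.00597). Its refractory libraries held CPM values of 1020, 811, 760.5 and 865 at 0 h, 1004, 793, 873 and 897 at 0.5 h, 1108, 926, 927 and 912 at 6 h, and 1034, 896, 846 and 875 at 72 h. These groups overlapped, and the change at 72 h was 0.08 ± 0.092 SE (adjusted p = 0.887). The difference between the periods in the change to 72 h was 0.46 ± 0.13 SE and was not called (adjusted p = 0.0979). DESeq2 called it (adjusted p = 0.049), as did the quasi-likelihood test without refractory 0 h A (adjusted p = 0.0315). No other alternative called it, the 27 libraries among them, and neither did leaving out any other library. The fall in regeneration tails was called without each library in turn, and in the 27 libraries it was -0.39 (adjusted p = 0.00126).

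Its homeolog atp6v0c.S encodes the same subunit. Its regeneration libraries held CPM values of 810.5, 815, 717 and 809.5 at 0 h, 784, 758, 803 and 746 at 0.5 h, 723, 828, 738 and 708 at 6 h, and 732, 552, 593 and 720.5 at 72 h. The refractory CPM values were 811, 749.7, 651 and 801 at 0 h, 857, 759, 623 and 788 at 0.5 h, 749, 739.9, 710.3 and 744 at 6 h, and 866, 776, 739 and 737 at 72 h. The change at regeneration 72 h was -0.28 ± 0.097 SE and was not called (adjusted p = 0.0947), with overlap between the libraries of both times. The log2 ratio of the .L to the .S copy changed by -0.09 ± 0.084 SE from 0 h to 72 h (limma, adjusted p = 0.909), so a difference between the copies was not shown.

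The a subunit of V0 forms the proton path, and its isoforms place the pump in different membranes. In mammals a4 is known from acid-secreting cells of the kidney, and a1 from synaptic vesicles. In refractory tails atp6v0a4.L stood at CPM values of 115, 154, 129.8 and 149 at 0 h, 124, 113, 96.7 and 123 at 0.5 h, 125, 109.7, 98.5 and 129 at 6 h, and 95.98, 86.7, 105 and 86.8 at 72 h. All 4 libraries at 72 h lay below all 4 at 0 h, with a change of -0.55 ± 0.14 SE (adjusted p = 0.0195). In regeneration tails it stood at CPM values of 130.1, 115, 117 and 109 at 0 h, 131, 128, 120.2 and 105 at 0.5 h, 87.2, 84.7, 104 and 123 at 6 h, and 84.2, 93.5, 96.4 and 93.9 at 72 h. There too the 72 h libraries lay below those at 0 h, and the change of -0.36 ± 0.14 SE was not called (adjusted p = 0.17). The difference between these changes was -0.19 ± 0.20 SE (adjusted p = 0.906). The refractory call was lost without 0 h B (adjusted p = 0.0978), 72 h B (0.0875), 0 h D (0.103) or 72 h D (0.0961), and in the 27 libraries the change was -0.57 (adjusted p = 0.00876).

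For the a1 isoform, atp6v0a1.L stood at CPM values of 54.1, 57.4, 63.99 and 56.1 at 0 h, 54.5, 47.7, 42.6 and 44.4 at 0.5 h, 57.1, 38.3, 60.5 and 53.6 at 6 h, and 48.2, 32.4, 41.1 and 44.9 at 72 h in regeneration tails. In refractory tails it stood at CPM values of 63.6, 56.4, 39.7 and 35.3 at 0 h, 33.7, 49.4, 57.7 and 48.3 at 0.5 h, 41.7, 39.3, 46.01 and 38.6 at 6 h, and 47.99, 44.96, 44.1 and 54.4 at 72 h. The change at regeneration 72 h was -0.48 ± 0.20 SE (adjusted p = 0.209), with every 72 h library below every 0 h library, and at refractory 72 h it was -0.03 ± 0.20 SE (adjusted p = 0.894). Its homeolog atp6v0a1.S stood at CPM values of 40.7, 25.97, 28.7 and 25.7 at 0 h, 36.3, 22.03, 36.9 and 35.8 at 0.5 h, 28.02, 44.7, 32.7 and 22.9 at 6 h, and 29.7, 48.8, 32.3 and 39.1 at 72 h in regeneration tails. Its refractory libraries held CPM values of 36.1, 32.7, 20.6 and 30.8 at 0 h, 31.4, 27.6, 16.6 and 33.7 at 0.5 h, 40.3, 25.2, 34.6 and 33.3 at 6 h, and 35.7, 46.4, 31.8 and 28.5 at 72 h. The atp6v0a1.S change was 0.30 ± 0.25 SE (adjusted p = 0.67) and 0.24 ± 0.25 SE (adjusted p = 0.866) at 72 h in the 2 periods, with overlapping libraries.

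In the V1 ring, the B subunits bind nucleotide beside the catalytic A subunits. In mammals the B1 isoform is known from acid-secreting cells of the kidney and inner ear and B2 from most tissues. In regeneration tails atp6v1b1.L stood at CPM values of 44.2, 71.96, 60.4 and 45.5 at 0 h, 45.7, 56.1, 30.5 and 45.9 at 0.5 h, 52.6, 59.8, 64.4 and 58.6 at 6 h, and 31.6, 24.9, 35.4 and 31.7 at 72 h. The highest library at 72 h, at 35.4 CPM, lay below the lowest at 0 h, at 44.2 CPM, and the change was -0.84 ± 0.22 SE (adjusted p = 0.0101). The refractory CPM values were 61.9, 41.7, 52.9 and 59.8 at 0 h, 60.7, 54.01, 40.6 and 62.98 at 0.5 h, 49.98, 52.4, 43.5 and 52.1 at 6 h, and 58.4, 37.8, 35.4 and 21.8 at 72 h. There the change at 72 h was -0.50 ± 0.22 SE (adjusted p = 0.353), and library 72 h A, at 58.4 CPM, overlapped the 0 h libraries. The regeneration call was lost without 0 h B (adjusted p = 0.0863) or 72 h B (0.0747). In the 27 libraries, which lack refractory 72 h A, atp6v1b1.L was called in both periods, at -0.95 in regeneration (adjusted p = 0.000897) and -0.78 in refractory tails (adjusted p = 0.022). The difference between the periods was 0.35 ± 0.31 SE (adjusted p = 0.88).

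A further gene was called at refractory 72 h in the 27 libraries. This was atp6v1al.L, whose name marks it as like the A subunit gene, with a log2 change of -1.02 (adjusted p = 0.0117). It makes 3 members called there, beside 3.48% of all genes. In all 32 libraries the change was -0.76 ± 0.26 SE (adjusted p = 0.156), from 33.1, 47.1, 30.4 and 61.2 CPM at 0 h to 37.9, 34.3, 12.9 and 17.6 CPM at 72 h, with the libraries of both times overlapping.

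**Figure D3:**
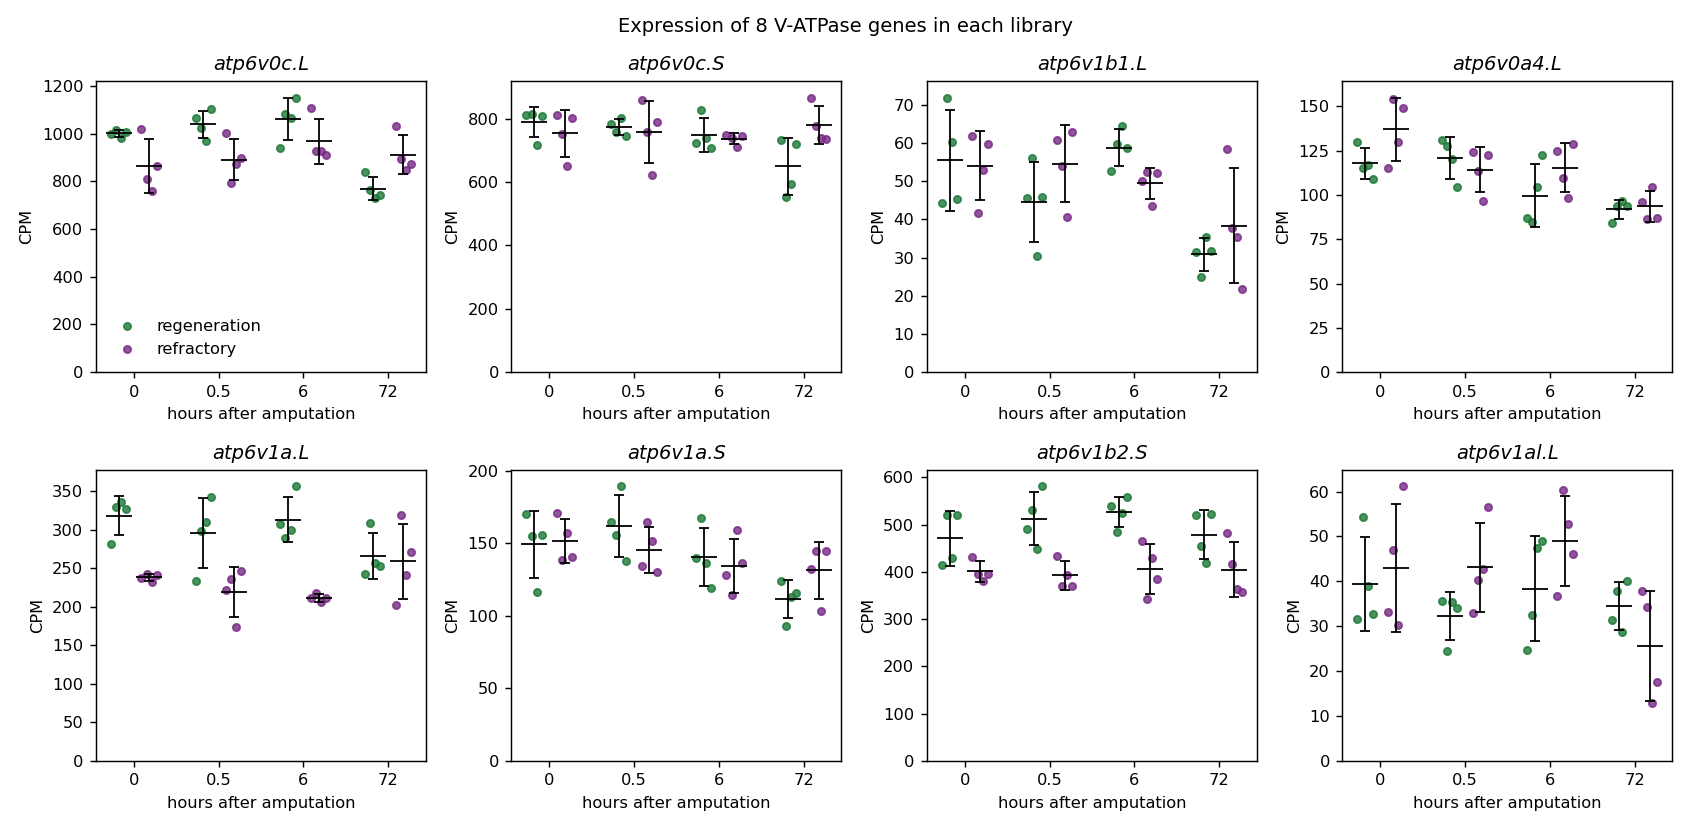
CPM (vertical axes, from 0) of 8 V-ATPase genes against hours after amputation in both periods. Points are libraries, and bars show the mean and SD of 4. The atp6v0c.L and atp6v1b1.L libraries at regeneration 72 h lie below those at 0 h, and the atp6v1a.L libraries at refractory 6 h lie below those at regeneration 6 h.

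Other cell types and tissues also changed over the same 72 h. The marker counts below stand beside 3.85% of all genes called at regeneration 72 h and 1.65% at refractory 72 h. Summed skeletal muscle markers were 49010 to 68280 CPM at regeneration 0 h and 21420 to 33640 CPM at 72 h, and 13 of 19 tested fell. In refractory tails they were 57760 to 82760 and 34170 to 47800 CPM, and 11 of 19 fell. In neurons the pump powers the filling of synaptic vesicles, and markers of neurons and these vesicles summed to 1496 to 2274 CPM at regeneration 0 h and 1130 to 1380 CPM at 72 h, where 4 of 21 fell, among them syn1.S by a log2 change of -0.56 ± 0.14 SE (adjusted p = 0.00762). The highest neuron sum at 0 h, 2274 CPM, was in regeneration 0 h A, which also had the most retina, lens, liver, pancreas and gut marker counts of its group, and the other 3 libraries had 1496 to 1758 CPM. At regeneration 72 h the median log2 change was -0.48 for the neuron list, -0.44 for the retina and lens list and -0.47 for the liver, pancreas and gut list, against 0.02 over all genes tested. In refractory tails 0 of 21 were called at 72 h. In each of these groups 0 of 22 neuron and 0 of 20 muscle markers were at 0. Notochord markers rose in 6 of 12 at regeneration 72 h, and in 3 of 12 at refractory 72 h with 1 lower. Their summed level did not rise with them. It was 3630 to 5820 CPM at regeneration 0 h and 3808 to 4510 CPM at 72 h, with overlap. In refractory tails it was 4625 to 5734 CPM at 0 h and lower at 72 h, 3294 to 4077 CPM, without overlap. This sum follows the genes with the most counts. The list's median log2 change was above 0 in both periods, 1.12 at regeneration 72 h and 1.17 at refractory 72 h. Of macrophage and osteoclast-like markers 3 of 15 rose at regeneration 72 h and 1 of 15 at refractory 72 h. The median log2 change of that list was similar in both, at 1.34 and 1.26. Of pigment cell markers 2 of 9 fell at regeneration 72 h and 0 of 9 at refractory 72 h. The part of these cell types in the V-ATPase changes was not tested.

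Ionocytes are skin cells rich in V-ATPase. Their marker genes' summed level was 497 to 636 CPM at regeneration 0 h and 479 to 698 CPM at 72 h. Of 17 tested markers 2 rose, the ammonium transporter genes rhcg.L (log2 change 2.07 ± 0.57 SE, adjusted p = 0.0204) and rhbg.S (1.26 ± 0.34 SE, adjusted p = 0.0287), and none fell. The list as a whole did not rise. Its median log2 change at 72 h was -0.13 in regeneration and -0.36 in refractory tails, beside 0.02 over all genes in both. Of all genes tested 3.85% and 1.65% were called there. In refractory tails the sum was 776 to 1220 CPM at 0 h and 392 to 540.5 CPM at 72 h, without overlap, and 4 of 17 fell: rhbg.S (-1.88 ± 0.34 SE, adjusted p = 0.00231), the carbonic anhydrase gene ca2.L and both copies of the anion exchanger gene slc4a1. Red blood cells also express slc4a1 and ca2, and 6 of 11 erythrocyte markers fell at refractory 72 h: the same 2 copies of slc4a1, the globin genes hba2.L, hbe1.L and hbg2.L, and the heme synthesis gene alas2.L. Summed erythrocyte markers were 2186 to 9546 CPM at refractory 0 h and 629 to 940 CPM at 72 h. At refractory 0 h, libraries A and B were the highest in both the ionocyte and the erythrocyte sum. The part of red blood cells in the ionocyte sum was not tested. The ionocyte regulator genes foxi1.L and foxi1.S were not called at 72 h in either period, with changes of -0.23 ± 0.30 and -0.35 ± 0.41 SE in regeneration and -0.10 ± 0.31 and -0.35 ± 0.41 SE in refractory tails (adjusted p of 0.797 to 0.972). None of the 19 listed ionocyte markers was at 0 throughout a group. The part of ionocytes in the changes of atp6v1b1.L and atp6v0a4.L was not tested.

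The second question was how the periods differed at the same time. At 0 h the test called 0 of 40 members, beside 0.669% of all genes, and DESeq2 called 0. At an unadjusted p under 0.05, 1 was higher and 5 were lower in refractory tails, beside 1848 of 21231 genes in either direction. At 0.5 h the test called 0 of 40, beside 1.18% of all genes, and DESeq2 called 0. At an unadjusted p under 0.05, 2 were higher and 5 were lower, beside 1947 of 21231 genes in either direction. One of the higher genes was the low-count atp6v1f.S. At 6 h 2 of 40 were lower in refractory tails, atp6v1a.L and atp6v1b2.S, beside 1.83% of all genes, and DESeq2 called 1. At an unadjusted p under 0.05, 1 was higher and 5 were lower, these 2 among them, beside 2117 of 21231 genes in either direction. The higher gene was atp6v1g2.L, with only 0 to 26 counts per library. At 72 h the test called 0 of 40, beside 1.51% of all genes, and DESeq2 called 1. At an unadjusted p under 0.05, 3 were higher and 1 was lower, beside 2633 of 21231 genes in either direction. The median difference of the members, refractory minus regeneration, was -0.05, -0.165, -0.18 and 0.03 at 0, 0.5, 6 and 72 h, beside -0.01, -0.0093, -0.02 and -0.0050 over all genes. At 6 h 30 of 40 lay below 0, which is 75%, beside 52.3% of all genes.

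The A subunit holds the catalytic site of the pump. In regeneration tails atp6v1a.L stood at CPM values of 281, 329, 336 and 326 at 0 h, 233, 298, 309.7 and 342 at 0.5 h, 307, 289, 299.6 and 356 at 6 h, and 243, 309, 257 and 253 at 72 h. In refractory tails it stood at CPM values of 238, 242, 232 and 242 at 0 h, 221, 235, 174 and 246 at 0.5 h, 211, 218, 206 and 212 at 6 h, and 203, 319, 241 and 272 at 72 h. The refractory libraries lay below all regeneration libraries of the same time at 0 and 6 h, and overlapped them at 0.5 and 72 h. The difference was -0.57 ± 0.12 SE at 6 h (adjusted p = 0.00282), and it was called without each library of those groups in turn. At 0 h it was -0.42 ± 0.12 SE (adjusted p = 0.103), at 0.5 h -0.43 ± 0.12 SE (adjusted p = 0.0605) and at 72 h -0.04 ± 0.12 SE (adjusted p = 0.959). Among ionocyte markers rhbg.S and rhcg.L, 2 of 17, were higher in refractory tails at 0, 0.5 and 6 h, at 6 h by 1.33 ± 0.34 and 2.29 ± 0.58 SE (adjusted p = 0.0371 and 0.0181). At 72 h 1 of 17 was called, rhbg.S, and it was lower in refractory tails (-1.37 ± 0.34 SE, adjusted p = 0.0359). The list's median difference was 0.11 at 6 h and -0.38 at 72 h. The shares of all genes called were 0.669%, 1.18%, 1.83% and 1.51% at 0, 0.5, 6 and 72 h. Of muscle and neuron markers 0 of 19 and 0 of 21 were called between the periods at 6 h. The part of these cells in the atp6v1a.L difference was not tested.

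The earlier times depended on which libraries were used. In the 27 libraries atp6v1a.L was called lower in refractory tails at 0 h (log2 difference -0.46, adjusted p = 0.00709), where it was the 1 member called beside 2.42% of all genes. It was also called at 0.5 h (-0.53, adjusted p = 0.00355), as 1 of 2 members beside 2.11%, and at 6 h (-0.58, adjusted p = 0.000151), as 1 of 2 beside 3.47%. When regeneration 0.5 h A alone was left out, it was called at 0.5 h (adjusted p = 0.0121), and when regeneration 0.5 h C was left out atp6v1b2.S was called there (adjusted p = 0.0417). The 4 libraries with high retina and lens sums each held the lowest atp6v1a.L level of their group, at 281 CPM in regeneration 0 h A, 233 CPM in 0.5 h A, 289 CPM in 6 h B and 203 CPM in refractory 72 h A. Among the 27, retina and lens sums at 0 h were 661 to 933 CPM in regeneration and 952.5 to 1229 CPM in refractory tails. At 0.5 h they were 838 to 945 and 903 to 998 CPM, and at 6 h 765 to 859 and 829.5 to 1124 CPM. The part of these tissues in the atp6v1a.L calls was not tested. The difference between the periods in the change from 0 h was not called for atp6v1a.L at any time. It was -0.01 ± 0.17, -0.15 ± 0.17 and 0.38 ± 0.17 SE at 0.5, 6 and 72 h (adjusted p = 1, 0.992 and 0.534).

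Its homeolog atp6v1a.S stood at CPM values of 170.3, 155, 116 and 156 at 0 h, 165, 156, 189.5 and 138 at 0.5 h, 140.1, 167, 136 and 119.5 at 6 h, and 124, 93.00, 113 and 116 at 72 h in regeneration tails. Its refractory libraries held CPM values of 171, 138, 157 and 141 at 0 h, 135, 165, 152 and 130.3 at 0.5 h, 128, 114, 159 and 137 at 6 h, and 133, 145, 104 and 145 at 72 h. The periods overlapped at all 4 times, and the difference at 6 h was -0.06 ± 0.14 SE (adjusted p = 0.961). The log2 ratio of atp6v1a.L to atp6v1a.S differed between the periods by -0.50 ± 0.18 SE at 6 h, which did not pass adjustment over all pairs (limma, adjusted p = 0.347). At regeneration 72 h atp6v1a.S changed by -0.42 ± 0.14 SE and was not called (adjusted p = 0.0754). DESeq2 called it (adjusted p = 0.0425), as did the quasi-likelihood test without regeneration 0 h C (adjusted p = 0.0305), and no other alternative did.

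The B2 isoform gene is listed here as the .S copy. In regeneration tails atp6v1b2.S stood at CPM values of 414, 519, 428 and 521 at 0 h, 491, 530.2, 449 and 581 at 0.5 h, 539, 485, 525 and 559 at 6 h, and 519, 454, 418 and 523 at 72 h. The refractory CPM values were 432, 395, 382 and 395 at 0 h, 435, 371, 394 and 370.5 at 0.5 h, 465, 343, 429 and 384 at 6 h, and 483, 416, 363 and 358 at 72 h. At 0.5 and 6 h all refractory libraries lay below all regeneration libraries, while at 0 and 72 h they overlapped. The difference was -0.38 ± 0.11 SE at 6 h (adjusted p = 0.0486), close to the threshold: it was not called with DESeq2 (adjusted p = 0.0591) or in 6 of the 8 fits that left out 1 library (adjusted p up to 0.272). In the 27 libraries it was -0.40 at 6 h (adjusted p = 0.00866) and -0.46 at 0.5 h (adjusted p = 0.00625). In all libraries it was -0.23, -0.39 and -0.24 at 0, 0.5 and 72 h (adjusted p = 0.525, 0.0581 and 0.32).

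**Figure D4:**
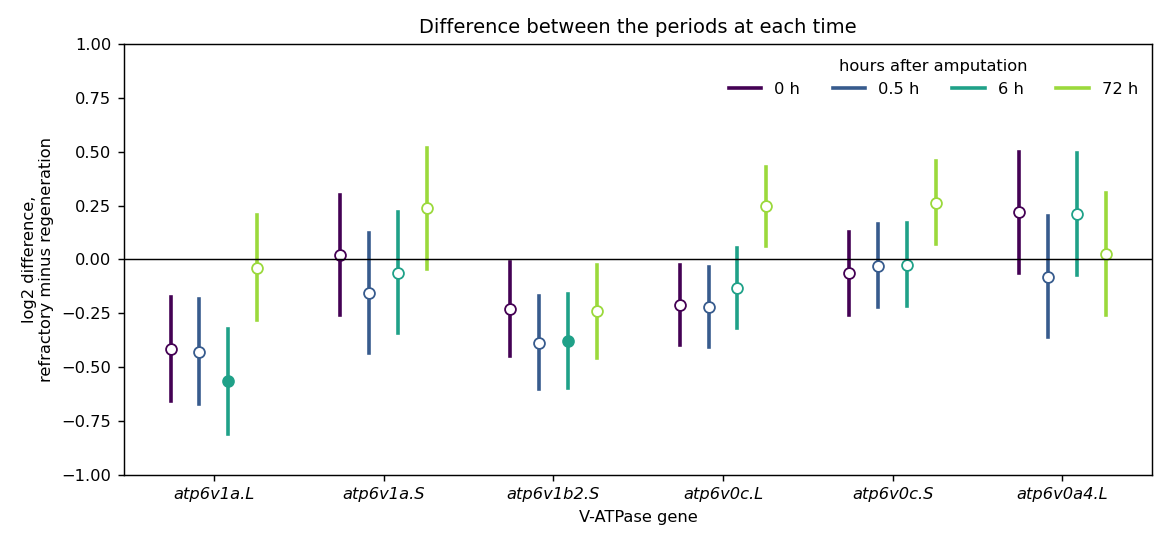
Log2 difference between refractory and regeneration tails (vertical axis) for 6 V-ATPase genes at 0, 0.5, 6 and 72 h. Points are estimates, filled where the adjusted p is under 0.05, and lines are 95% intervals. The atp6v1a.L estimates are -0.42, -0.43 and -0.57 at the first 3 times and -0.04 at 72 h.

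At 72 h the member with the smallest adjusted p between the periods was the stalk gene atp6v1e1.S. It stood at 81.4, 64.6, 80.3 and 84.9 CPM in regeneration and at 121, 114, 91.2 and 113 CPM in refractory tails, without overlap. The difference was 0.50 ± 0.16 SE (adjusted p = 0.0925). It was called, as higher in refractory tails, only with DESeq2 (adjusted p = 0.038) and with only the groups compared (adjusted p = 0.0469). It was also 0.35 ± 0.16 SE at 0 h (adjusted p = 0.471). At 72 h 5 of 21 neuron markers were higher in refractory tails, beside 1.51% of all genes. The neuron list's median difference was 0.60, beside -0.0050 over all genes. Medians were also above 0 for retina and lens (0.62), liver, pancreas and gut (0.57), pigment cell (0.635), muscle (0.38) and macrophage (0.24) lists. They were below 0 for ionocyte (-0.38), notochord (-0.22) and erythrocyte (-0.52) lists. The part of these cell types in the atp6v1e1.S difference was not tested.

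The third question was whether the change from 0 h itself differed between the periods. For the change to 0.5 h 0 of 40 members were called, beside 0% of all genes. At an unadjusted p under 0.05, 1 had a more positive change in refractory tails, beside 706 of 21231 genes in either direction. That gene was the low-count atp6v1f.S. For the change to 6 h 0 of 40 were called, beside 0.0612% of all genes. At an unadjusted p under 0.05 there were 0, beside 1226 of 21231 genes in either direction. For the change to 72 h 0 of 40 were called, beside 0.466% of all genes. At an unadjusted p under 0.05, 5 had a more positive change in refractory tails and none a more negative one. Over all 21231 genes, 1748 passed that threshold in either direction. DESeq2 called 0, 0 and 1 of the members for the changes to 0.5, 6 and 72 h. The median difference to 72 h was 0.175 beside 0.02 over all genes, and 27 of 40 lay above 0. The share below 0 was 32.5% of members, beside 48.6% of all genes. For this contrast the 95% interval lay within -1 and 1 for 15 of 40 members.

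The accessory subunits ATP6AP1 and ATP6AP2 help assemble the pump and guide it to its membranes, and ATP6AP2 is also known as the prorenin receptor. In regeneration tails atp6ap2.L stood at CPM values of 77.7, 94.96, 84.7 and 108 at 0 h, 64.01, 97.5, 90.04 and 80.5 at 0.5 h, 82.7, 99.8, 84.5 and 80.6 at 6 h, and 77.9, 87.4, 67.9 and 81.7 at 72 h. In refractory tails it stood at CPM values of 76.4, 54.1, 67.6 and 76.6 at 0 h, 80.2, 56.3, 64.7 and 76.2 at 0.5 h, 63.6, 69.97, 80.6 and 59.9 at 6 h, and 55.9, 87.4, 72.9 and 53.3 at 72 h. The periods overlapped at 0.5, 6 and 72 h, at 6 h by less than 1 CPM, and the difference was -0.41 ± 0.17 SE at 0 h (adjusted p = 0.417) and -0.34 ± 0.17 SE at 6 h (adjusted p = 0.497). Its homeolog atp6ap2.S stood at CPM values of 9.93, 7.85, 8.36 and 9.09 at 0 h, 10.7, 7.54, 8.29 and 11.9 at 0.5 h, 10.5, 7.06, 13.2 and 4.70 at 6 h, and 9.26, 9.65, 2.61 and 10.2 at 72 h in regeneration tails. Its refractory libraries held CPM values of 17.8, 6.01, 3.43 and 8.39 at 0 h, 5.56, 2.68, 16.03 and 7.32 at 0.5 h, 2.52, 3.52, 11.4 and 15.9 at 6 h, and 13.9, 11.4, 3.00 and 8.37 at 72 h. No change of either copy was called. The 4 genes of ATP6AP1, atp6ap1.1 and atp6ap1.2 with 2 copies each, were not called in any contrast.

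The remaining members were the V1 shaft and stalk genes (atp6v1c1, c2, d, e1, f, g1, g2, g3 and h) and the V0 genes atp6v0a2, b, d1, d2, e1 and e2. None of them was called in any of the 13 contrasts of the quasi-likelihood test. Some had too few counts for a fold change: atp6v1f.S had 0 to 22 counts and atp6v1g2.L 0 to 26 counts per library, and their fitted changes are not given.

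Homeolog balance was tested for the 15 members with both copies measured, within the log2 ratio of .L to .S counts over 5584 pairs. The test called 0 of 15 member pairs in each of the 13 contrasts, with a smallest adjusted p of 0.337. The background was low too. In regeneration tails it called 0%, 0.0179% and 0.537% of pairs at 0.5, 6 and 72 h, and in refractory tails 0.0358%, 0.734% and 0.322%. Between the periods it called 0.233%, 0.466%, 0.448% and 0.161% at 0, 0.5, 6 and 72 h, and 0%, 0.0179% and 0.0358% for the differences in change. The .L copy gave 55.7% of the atp6v0c counts over all libraries (50.8% to 61.9% in single libraries), 65.7% for atp6v1a (53.4% to 76.9%), 31.6% for atp6v1e1 (17.6% to 45.7%) and 89.9% for atp6ap2 (79% to 96.3%). These shares are not corrected for transcript length, and how reads shared by both copies were assigned is not stated, so they are uncertain.

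Genes that work with the pump were followed in the same fit. Of 15 V-ATPase genes outside the family name (the a3 subunit, assembly factors and regulators of assembly) 0 were called in each of the 13 contrasts, and of 16 genes of the Ragulator and Rag complexes, which dock mTORC1 to lysosomes beside the pump, also 0. Of 44 lysosome genes, many of which share control by TFEB and TFE3 with the V-ATPase genes in mammals, 3 rose at regeneration 72 h. They were psap.L (0.45 ± 0.12 SE, adjusted p = 0.0139), tfe3.S (0.42 ± 0.11 SE, adjusted p = 0.0152) and ctsa.L (0.63 ± 0.19 SE, adjusted p = 0.0336). The list's median was 0.325 beside 0.02 over all genes, while the V-ATPase median was -0.22. Of all genes tested 3.85% were called there. At refractory 6 h 3 of 44 rose: the tetraspanin gene cd63.L (1.17 ± 0.20 SE, adjusted p = 5.25e-05), the autophagy receptor gene sqstm1.L (1.57 ± 0.24 SE, adjusted p = 8.78e-05) and tfe3.S (0.46 ± 0.11 SE, adjusted p = 0.00844). At refractory 72 h both copies of the cathepsin C gene ctsc rose, ctsc.S by 1.34 ± 0.30 SE (adjusted p = 0.00599). The list's median there was 0.287 beside 0.02 over all genes, and the V-ATPase median was 0.0039. Of all genes tested 2.45% were called at refractory 6 h and 1.65% at refractory 72 h. None of the 44 was called at 0.5 h in either period or at regeneration 6 h. Between the periods sqstm1.L was higher in refractory tails at 6 h (1.24 ± 0.24 SE, adjusted p = 0.00285), and hexb.L was lower at 72 h (-1.04 ± 0.25 SE, adjusted p = 0.03). The shares of all genes called were 1.83% and 1.51% at these times.

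Of 13 other ion transport genes named in work on tail regrowth, 0 were called at 0.5 or 6 h in either period. Between the periods atp1b1.S was higher in refractory tails at 6 h (0.50 ± 0.12 SE, adjusted p = 0.00683), beside 1.83% of all genes called.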

How the data were processed

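Bulk RNA-seq of tails was analysed in 32 libraries, 4 for each of 8 groups of period and time. Per the labels' protocols, libraries were made from total RNA with the Lexogen SENSE Total kit and sequenced in pairs on a NextSeq 500. The submitters' processing notes list DESeq2 1.32.0, HTSeq 0.6.1p1, R 4.1.0 and STAR 2.7.9a, and give neither settings nor order. A genome build is not given in the sources used here, and coordinates are left out. Each period has a deposited table of raw read counts per gene. The authors' normalized tables hold a signal (the counts of 27 libraries, divided by a size factor for each library) and served here only to define that subset.

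In R 4.3.3, edgeR 4.0.16 fitted 1 robust quasi-likelihood model to the counts (TMM, filterByExpr, 24 residual degrees of freedom, common biological coefficient of variation 0.38) and tested 13 contrasts. P-values are two-sided, adjusted by Benjamini-Hochberg over all 21231 genes in each contrast, and called under 0.05. Homeolog ratios, log2 of .L over .S counts with 0.5 added to each, were tested with limma 3.58.1. Alternatives used RLE scaling, DESeq2 1.42.0, no low-count filter, only the groups compared, a replicate block, the 27 libraries, and leaving out each library. The fits were also run on counts simulated from the same model with planted changes, which cannot test how well that model suits these libraries.

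The members, gene lists, tests and named genes were chosen with earlier results of these data known. Library values are given for members called and for a fixed set (both copies of atp6v1a, atp6v1b2, atp6v0c, atp6v0a1 and atp6ap2, where listed), and up to 3 called members of other lists are named. Further genes are named where a count singled them out after their values were seen. Comparison of levels per transcript length and a search of promoters for motifs were planned and not run, since no sequences were used here. Some results of the ion transport list are not reported here.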

Additional observations from a re-analysis of the deposited data

Results flagged for a closer look

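Of 96 sets of 4 libraries checked (the values of a gene or of the member sum within a group), 5 held a library far from the other 3, and chance flags about 1 in 20 such sets. In regeneration 72 h C, atp6ap2.S stood at 2.61 CPM, while the other libraries of the group lay between 9.26 and 10.3 CPM. In regeneration 0.5 h B, atp6v0a1.S stood at 22.03 CPM, with the others between 35.8 and 36.9 CPM. In regeneration 0 h C, atp6v0c.S stood at 717 CPM, with the others between 809.5 and 815 CPM. In refractory 6 h A, atp6v0c.L stood at 1108 CPM, with the others between 912 and 927 CPM. The same library held the high summed level of all members, 3764 CPM against 3402 to 3415 CPM.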

How the results depend on the processing

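The number of V-ATPase genes called stayed within 1.5 times under each alternative except the following and the replicate block described in the next paragraph. Apart from the 27 libraries, the share of all genes called under each alternative is not given here. In the 27 libraries 3 members were called lower at refractory 72 h, 1 in refractory against regeneration tails at 0 h and 2 at 0.5 h. At 6 h between the periods 1 was called with RLE scaling, 1 with only the groups compared and 1 with DESeq2, which left atp6v1a.L. At 72 h between the periods 1, atp6v1e1.S, was called with only the groups compared (adjusted p = 0.0469) and 1 with DESeq2, and for the difference in the change to 72 h DESeq2 called 1. Leaving out 1 library at a time gave 1 to 3 members at regeneration 72 h, 0 to 2 at refractory 72 h, 0 to 1 between the periods at 0.5 h, 1 to 2 at 6 h, and 0 to 1 for the difference in the change to 72 h. Without refractory 72 h A the count there was 2, adding atp6v1al.L (adjusted p = 0.0371). The RLE scaling gave atp6v1b2.S an adjusted p of 0.0726 at 6 h and the fit of only the groups compared 0.159. None of the 5 called changes changed sign: of 70 refits of the 5 called changes 55 kept the call and 15 lost it. Of the median log2 changes 194 moved by less than 1 SD between libraries (0.0713) and 12 by more. Medians near 0 did change sign: at refractory 72 h it was 0.0039 in all libraries and -0.059 in the 27, and for the difference in the change to 6 h -0.076 in all and 0.0038 without refractory 0 h D. Homeolog pairs called stayed at 0 under each alternative run.

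Letters did not pair the libraries throughout: the correlation of same-letter deviations ran from -0.127 to 0.16. The highest was between the A libraries of regeneration 0 and 0.5 h, where different letters had a median of -0.0034. The lowest was between the B libraries of regeneration 0 and 6 h. With a replicate block 2 members were called between the periods at 0.5 h, atp6v1a.L (adjusted p = 0.0398) and atp6v1b2.S (0.0427), and the number called in the other contrasts did not change. Depth limits the low-count members most, and intervals cover the spread between these libraries only. The causes of these differences were not tested.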
